A study of Mus musculus with 12 samples.

Results

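Genes of the Ly6 family that are expressed in the medial prefrontal cortex were compared between 2 inbred mouse strains and between restrained and unrestrained mice. The genes were chosen by name: Ly6a, Ly6c1, Ly6c2, Ly6e, Ly6h, Lynx1 and Lypd1, which are 7 of the 55678 gene names in the expression table, with all transcript entries that carry a name summed. The study sequenced RNA from 12 mice in 4 groups of 3, with 1 library per animal. The B6 groups were C57BL/6JmsSlc mice, either handled without restraint (animals 2, 3 and 9) or exposed to chronic restraint stress, CRS (animals 12, 13 and 14). The BALB/c groups were BALB/cCrSlc mice, either handled (animals 5, 9 and 10) or exposed to CRS (animals 12, 13 and 15). CRS meant 6 h of restraint in the home cage on each of 21 days. All mice were 9 to 10 weeks old, had gone through behavioural tests, and gave a 1.5 mm tissue punch; the labels do not state their sex. No transgene or engineered allele was used, so each strain contrast sets whole inbred genomes against each other.

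Ly6 proteins are small, mostly membrane-anchored proteins built on a fold of loops held together by disulfide bonds, shared with snake α-neurotoxins. Ly6a (Sca-1) and the Ly6c proteins are surface markers of blood cells and of brain capillary endothelium, and LY6A is the endothelial receptor that carries the AAV-PHP.eB capsid into the brain of C57BL/6 but not of BALB/c mice. Lynx1, Ly6h and Lypd1 are neuronal members known to bind nicotinic acetylcholine receptors and to limit their activity or surface number, and Ly6e is a widely expressed, interferon-inducible member.

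In GRCm38 coordinates, 6 of the 7 genes lay on chromosome 15. Lynx1 lay at chr15:74747852-74753046 on the minus strand and Ly6e at chr15:74955051-74959905 on the plus strand. Ly6a (chr15:74994877-74998031), Ly6c1 (chr15:75044018-75048830), Ly6c2 (chr15:75108158-75111970) and Ly6h (chr15:75551268-75567255) followed, all on the minus strand. Lypd1 lay apart at chr1:125867622-125913101 on the minus strand, and it alone overlapped another gene, Gpr39 on the opposite strand, which was listed at 0 to 0.229 TPM (a measure of transcript level that allows for transcript length and adds up to the same sum in every library). All 7 are annotated as protein coding.

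The first 150 coding bases of Ly6a, Ly6c1 and Ly6c2 are shown because the strain differences fell on a pair of them and because reads can be hard to assign among such close copies. They were read from the GENCODE M21 transcripts Ly6a-201, Ly6c1-201 and Ly6c2-201 (GRCm38, a C57BL/6J reference), from the start codon, 5′ to 3′. Capitals mark bases that differ from Ly6c1.
Ly6a: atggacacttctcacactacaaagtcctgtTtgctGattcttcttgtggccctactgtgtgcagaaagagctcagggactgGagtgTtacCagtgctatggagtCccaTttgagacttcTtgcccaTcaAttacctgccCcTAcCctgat
Ly6c1: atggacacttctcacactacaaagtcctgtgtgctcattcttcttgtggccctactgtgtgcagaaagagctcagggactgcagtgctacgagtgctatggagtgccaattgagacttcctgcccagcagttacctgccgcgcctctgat
Ly6c2: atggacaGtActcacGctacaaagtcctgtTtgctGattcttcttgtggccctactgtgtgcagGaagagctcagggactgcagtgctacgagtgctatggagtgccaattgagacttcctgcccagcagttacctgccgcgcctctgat

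Over this stretch Ly6a differed from Ly6c1 at 14 bases and Ly6c2 differed from Ly6c1 at 6. The stretch was chosen as the 150-base window with the most mismatches between Ly6c1 and Ly6c2, so the pair is more alike elsewhere. Over the whole coding sequence, Ly6c1 and Ly6c2 (396 bases each) were 97.73% identical, with 9 mismatches. Ly6a, with 405 coding bases, was 83.84% identical to Ly6c1 and 83.59% identical to Ly6c2. Of all 31-base words in the annotated transcripts, 68.07% of those of Ly6a, 53.24% of those of Ly6c1 and 76.31% of those of Ly6c2 occurred in no other gene. The share was 98.7% or more for each of the other 4 genes. At 150 bases, the length of a read here, it was 100% for Ly6a, 97.71% for Ly6c1 and 98.58% for Ly6c2. These shares hold for the reference sequence; how BALB/c sequence differences affected the assignment of reads was not tested.

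The 7 genes spanned a wide range of levels, which the length correction of TPM makes comparable between genes. Ly6h was the most abundant, at 256 to 505 TPM. Ly6e, Lypd1 and Lynx1 lay mostly around 100 TPM, Ly6c1 at 43.7 to 61.3 TPM, Ly6a at 2.83 to 31.4 TPM and Ly6c2 at 0.184 to 7.95 TPM. Ly6a and Ly6c2 separated the strains, in opposite directions, and the other 5 genes did not do so in all 12 libraries.

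**Figure D1:**
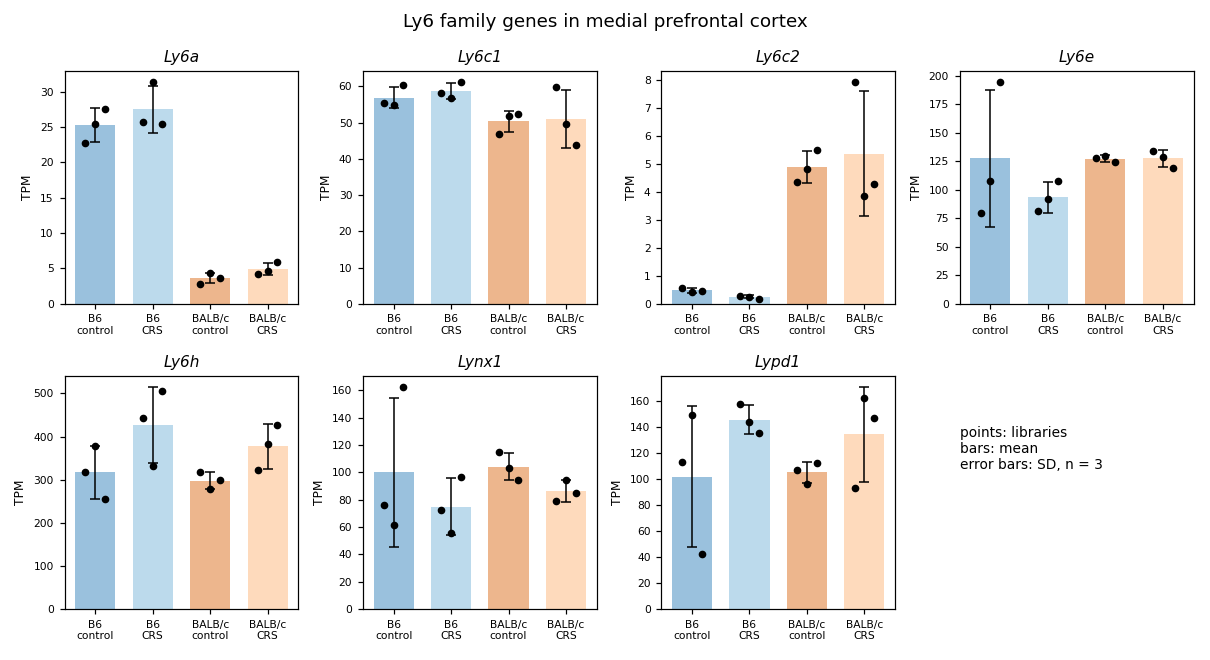
TPM of the 7 genes in each group (vertical axes, linear and starting at 0; each gene has its own scale). Points are libraries, bars are means and error bars are SD (n = 3). Ly6a lies at 22.7 to 31.4 TPM in the 6 B6 libraries and 2.83 to 5.88 TPM in the 6 BALB/c libraries; Ly6c2 has the opposite order.

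The first comparison asked how the strains differed, in handled mice, in restrained mice and averaged over both. Ly6a, the stem cell antigen and capillary surface protein, stood at 22.7, 25.4 and 27.5 TPM in the handled B6 mice and at 25.7, 31.4 and 25.4 TPM in the restrained B6 mice. It stood at 2.83, 4.31 and 3.71 TPM in the handled BALB/c mice and at 4.23, 4.68 and 5.88 TPM in the restrained BALB/c mice. Every B6 library therefore lay above every BALB/c library, and within each strain the treatments overlapped. The means were 25.2 ± 2.41 against 3.62 ± 0.746 TPM in controls (SD, n = 3 each), a 6.97-fold higher level in B6. Under CRS they were 27.5 ± 3.35 against 4.93 ± 0.858 TPM, 5.58-fold higher in B6. On the log2(TPM + 1) scale, BALB/c minus B6 was -2.51 (SE 0.157) in controls and -2.27 (SE 0.157) under CRS. Both passed limma's test with Benjamini-Hochberg adjustment over the 16423 genes tested (adjusted p = 5.116e-07 and 1.442e-06). The difference averaged over treatments was -2.39 (SE 0.111, limma adjusted p = 1.543e-08), beside a median of -0.08 over all tested genes.

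Ly6c2, a surface protein of inflammatory monocytes among other cells, went the other way at a far lower level. It was listed at 0.566, 0.419 and 0.448 TPM in handled B6 mice and at 0.288, 0.261 and 0.184 TPM in restrained B6 mice. In BALB/c it stood at 4.37, 4.83 and 5.49 TPM in handled mice and at 7.95, 3.87 and 4.29 TPM in restrained mice. No B6 library reached the lowest BALB/c library. The mean was 10.3-fold higher in BALB/c in controls (4.90 ± 0.562 against 0.478 ± 0.0779 TPM) and 22.0-fold higher under CRS (5.37 ± 2.24 against 0.244 ± 0.0540 TPM; SD, n = 3 each). The log2(TPM + 1) differences were 1.99 (SE 0.214) in controls and 2.30 (SE 0.214) under CRS, with limma adjusted p = 9.71e-05 and 2.626e-05. Averaged over treatments the difference was 2.15 (SE 0.151, limma adjusted p = 1.057e-06). With 0 of 6 B6 libraries and 6 of 6 BALB/c libraries at 1 TPM or more, Ly6c2 entered the test through BALB/c alone and could only have entered it by differing, and the added 1 TPM makes its log2 difference smaller than the ratio of means.

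Ly6c1, the near-identical neighbour of Ly6c2 and a classical marker of brain endothelium, differed little between the strains, with means 1.14-fold higher in B6 over both treatments. It was listed at 55.5, 55.0 and 60.3 TPM in handled B6 mice, 58.3, 56.7 and 61.3 TPM in restrained B6 mice, and 47.0, 51.7 and 52.3 TPM in handled BALB/c mice. The restrained BALB/c mice had 59.7, 49.6 and 43.7 TPM, so that animal 12 of that group lay among the B6 values. The averaged difference was -0.19 (SE 0.0807, 95% interval -0.37 to -0.02), which did not pass the test (limma adjusted p = 0.1218). Without that animal it was -0.25 and passed (limma adjusted p = 0.03035), in a fit that called 13.8% of tested genes. With all 12 libraries it was -0.098 after median-of-ratios scaling (limma adjusted p = 0.5366). When mitochondrial, Bc1 and ribosomal RNA were left out of the total it was -0.12 (limma adjusted p = 0.4041). Animal 12 of the restrained BALB/c mice also held the highest Ly6c2 value of all 12 libraries.

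Across the 7 genes, 2 were called in each strain comparison, Ly6a as lower and Ly6c2 as higher in BALB/c. Because Ly6c2 entered the test through BALB/c alone, nothing is read from this count. Of all tested genes, 4.73% were called in controls, 7.70% under CRS and 18.4% in the averaged comparison. By direction, the shares of tested genes called lower and higher in BALB/c were 3.37% and 1.36% in controls, 5.33% and 2.37% under CRS, and 14.3% and 4.05% in the averaged comparison. The strain groups did not overlap for Ly6a, Ly6c1 and Ly6c2 in controls (22.9% of tested genes), for Ly6a, Ly6c2 and Ly6e under CRS (29.3%), and for Ly6a and Ly6c2 over 6 against 6 libraries (8.95%). In controls the median over all tested genes was -0.10, so the small negative differences of Ly6c1 and Ly6h lay near the centre of all genes. The sign of the Ly6h difference in controls, -0.07, turned to 0.05 with median-of-ratios scaling, which moved the median of all genes to 0.01, and to 0.02 when mitochondrial, Bc1 and ribosomal RNA were left out of the total.

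**Figure D2:**
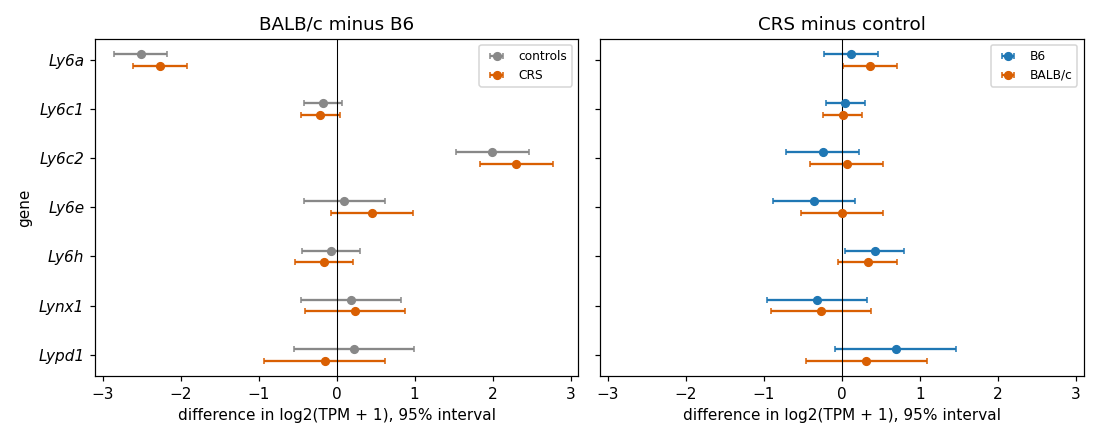
Differences in log2(TPM + 1) with 95% intervals from limma for the 7 genes (rows), BALB/c minus B6 on the left and CRS minus control on the right; colours give the treatment or strain in which the difference was taken. On the left, the intervals of Ly6a and Ly6c2 lie far from 0 in both treatments, from -2.86 to -1.93 for Ly6a and from 1.53 to 2.77 for Ly6c2.

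Because Ly6a, Ly6c1 and Ly6c2 share sequence, their values were also added together. Ly6c1 plus Ly6c2 amounted to 55.4 to 61.4 TPM in B6 and 48.0 to 67.7 TPM in BALB/c, overlapping ranges. The sum of all 3 was 78.8 to 88.3 TPM in B6 and 53.9 to 71.9 TPM in BALB/c, 1.41-fold higher in B6 on average and without overlap. Fitted as 1 gene, this sum passed the test in the averaged strain comparison (limma adjusted p = 0.001498). TPM is scaled by transcript length and holds only matched reads, so these sums do not settle how reads were shared out among the copies, which was not tested. Within the sum, Ly6a made up 28.8 to 35.5% in B6 and 5.22 to 10.9% in BALB/c. Ly6c2 made up 0.211 to 0.718% in B6 and 6.65 to 11.1% in BALB/c, and Ly6c1 made up the largest part in each library. Other genes of the table whose transcripts match Ly6a or the Ly6c genes at 80% identity or more over at least 200 bases (Ly6i, Ly6f, Ly6g, Gm5960, Gm10238 and 9030619P08Rik) were listed at 0 to 0.178 TPM. I830127L07Rik and BC025446 matched as well but had no entry under those names, so no level is given for them.

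The table lists several transcript entries per gene, 47 for the 7 genes, but names none of them, so they are given here by their order under the gene name. Over the 46000 entries of all genes that reached 1 TPM in at least 3 libraries, 5.00% separated the 6 B6 from the 6 BALB/c libraries. Of the 36 such entries of the 7 genes, 4 did: 2 of Ly6a, 1 of Ly6c2 and 1 of Ly6e. Each of these 4 stayed under 1 TPM in every library of its lower strain, so it reached that level through the other strain alone and had to differ, and nothing is read from their count. Some entries of a gene separated the strains and others did not. The third entry of Ly6a stood at 8.17 to 20.8 TPM in B6 and 0 to 0.562 TPM in BALB/c. Its entry 5 stood at 2.89 to 7.53 TPM in B6, while each of the 6 BALB/c libraries had 0. The fourth entry ran against the gene total, with 0 to 7.89 TPM in B6 and 2.48 to 4.23 TPM in BALB/c. It held 9.10% of the mean Ly6a level in B6 and 80.1% in BALB/c.

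For Ly6c2, the fourth entry carried the difference, at 3.52 to 7.49 TPM in BALB/c and above 0 in 1 B6 library, at 0.230 TPM. The first entry did not separate the strains, at 0.184 to 0.448 TPM in B6 and 0.348 to 0.50 TPM in BALB/c, and the remaining entries were listed at 0 throughout. The seventh entry of Ly6e was listed at 0 to 0.576 TPM in B6 and 2.17 to 7.39 TPM in BALB/c, within a gene whose total did not separate the strains. Its twelfth entry was listed at 0 in all 6 B6 libraries and above 0 in 5 of 6 BALB/c libraries, up to 10.9 TPM. The main entry of Ly6c1, the second, overlapped between the strains, at 29.3 to 40.6 TPM in B6 and 33.3 to 44.6 TPM in BALB/c. Whether these entries differ because the strains use different transcripts or because their sequences are matched differently to a C57BL/6J reference was not tested.

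**Figure D3:**
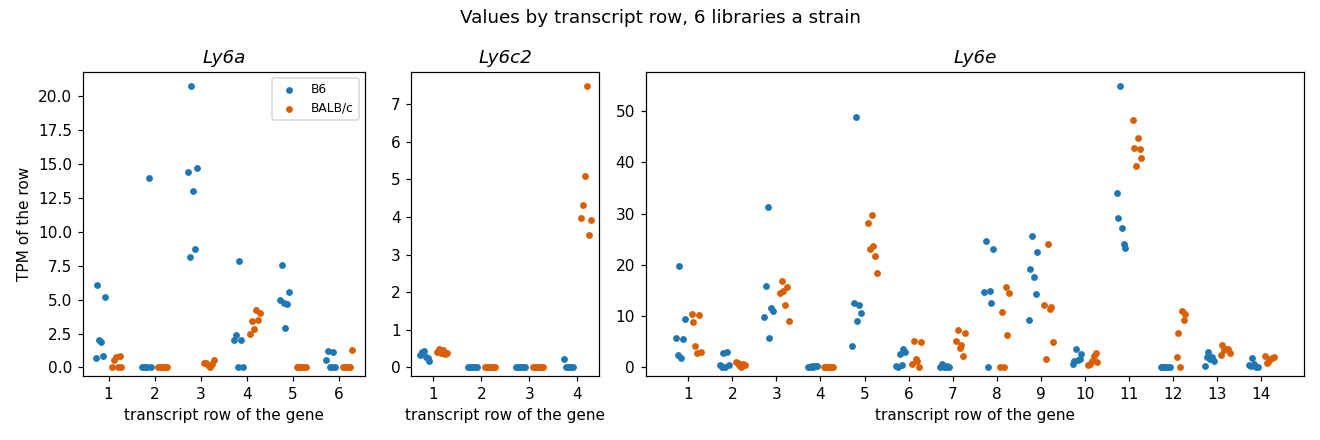
TPM of each transcript entry (numbered along the horizontal axis in the order of the table) of Ly6a, Ly6c2 and Ly6e; each point is 1 library, 6 per strain, and the vertical axes are linear. Entries 3 and 5 of Ly6a are high in B6 and at 0 to 0.562 TPM in BALB/c, while entry 4 of Ly6c2 and entry 7 of Ly6e are high in BALB/c.

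Ly6a and Ly6c1 mark vessels, so the level of endothelium was read from 22 endothelial genes, all of which were tested. Their summed level was 304 to 341 TPM in handled B6, 319 to 341 TPM in restrained B6, 298 to 334 TPM in handled BALB/c and 302 to 321 TPM in restrained BALB/c mice. These sums overlapped between strains in both treatments. The mean log2(TPM + 1) of the same genes overlapped in handled mice, at 3.37 to 3.55 in B6 and 3.28 to 3.43 in BALB/c, but not in restrained mice, at 3.48 to 3.55 and 3.32 to 3.44. In the averaged strain comparison, 18 of the 22 genes had negative differences, with a median of -0.14 beside -0.08 over all genes. Of the 22, 1 was called higher in BALB/c (Egfl7, 0.40) and 3 were called lower, beside 4.05% and 14.3% of all tested genes. The 3 were Ocln, a tight junction protein (-0.67), Tie1, a vascular receptor kinase (-0.40), and Slc2a1, the glucose transporter of the blood-brain barrier (-0.26). With this mean, which itself differed between strains under CRS, as a covariate, Ly6a and Ly6c2 were called in each strain comparison. That fit called 7.42% of all tested genes in controls, 12.9% under CRS and 17.9% averaged. The part of vessel content in the Ly6a and Ly6c2 differences was not tested. In bulk tissue, fewer cells of a type and less RNA per cell cannot be told apart. None of the 11 pericyte and smooth muscle genes was called in the averaged strain comparison, with a median of -0.24.

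Blood in the tissue could carry Ly6c2 and Ly6a, so 12 blood leukocyte markers were read as well. Only 4 of them reached the level for testing. In the averaged strain comparison 1 of the 4 was called (Lyz2, -0.53), beside 14.3% of all tested genes called lower. All 4 had negative differences, with a median of -0.56 beside -0.08 over all tested genes. The summed level of the 12 markers was 8.71 to 33.4 TPM in handled B6, 11.9 to 13.8 TPM in restrained B6, 6.17 to 11.3 TPM in handled BALB/c and 6.85 to 13.5 TPM in restrained BALB/c mice. The ranges overlapped between strains. The T cell gene Cd3e was listed at 0 in all 12 libraries and Ccr2, a receptor of the monocytes that carry Ly6c2, at 0.0205 to 0.205 TPM. The part of blood cells in the Ly6c2 and Ly6a results was not tested.

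The punches carried the markers of cortex, with Slc17a7, the vesicular glutamate transporter of cortical neurons, at 390 to 1074 TPM, but differed between strains in their make-up. All 9 striatal markers and 9 of 10 myelin markers were called lower in BALB/c in the averaged comparison, as were 14.3% of all tested genes. The striatal and myelin medians were -2.26 and -2.25. Summed striatal markers ranged from 232 to 2961 TPM in B6 and from 135 to 417 TPM in BALB/c, and summed myelin markers from 2597 to 9948 TPM in B6 and from 493 to 3167 TPM in BALB/c. Of 8 astrocyte markers, 3 were called lower and all 8 had negative differences, with sums of 1403 to 1616 TPM in B6 and 1039 to 1318 TPM in BALB/c that did not overlap. Of 9 microglia markers, 4 were called lower, with sums of 328 to 419 TPM in B6 and 296 to 329 TPM in BALB/c. In B6 control animal 9, whose striatal sum of 232 TPM fell in the BALB/c range, Ly6a stood at 27.5 TPM and Ly6c2 at 0.448 TPM, both among the other B6 values. That is a single library, and its astrocyte sum of 1496 TPM and microglia sum of 357 TPM lay above all BALB/c values. The part of tissue make-up in the results for the 7 genes was not tested.

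Ly6e, an interferon-inducible member of the family, is also a receptor gene for syncytin-A in the placenta and is present in many tissues. It was listed at 79.8, 108 and 194 TPM in handled B6 mice and 80.9, 91.4 and 107 TPM in restrained B6 mice. BALB/c values were closer together, at 128, 130 and 124 TPM in handled and 134, 129 and 119 TPM in restrained mice. All BALB/c libraries thus lay above 5 of the 6 B6 libraries and below B6 control animal 9. The averaged difference was 0.28 (SE 0.170, limma adjusted p = 0.2936). Without that animal it was 0.45 and passed (limma adjusted p = 0.006543), in a fit that called 23.2% of tested genes, against 18.4% with all libraries. Of 25 other interferon-stimulated genes, 17 were tested, with a median of -0.51 in the averaged comparison (-0.08 over all genes). Of these 17, 6 were called lower and 0 higher in BALB/c, beside 14.3% and 4.05% of all tested genes. The largest of the 6 called differences were Ifit3 (-1.80), Ifi27 (-0.64) and Xaf1 (-0.62), all known interferon targets. The fitted value of Ly6e was thus of the opposite sign to that median. Those of Ly6c2, Lynx1 and Lypd1 were too, while those of Ly6a, Ly6c1 and Ly6h shared its sign. The summed level of the 25 genes was 153 to 170 TPM in handled B6 and 158 to 168 TPM in restrained B6 mice. In BALB/c mice it was 93.4 to 120 TPM when handled and 111 to 126 TPM when restrained, without overlap between strains. The part of interferon signalling in the results for the 7 genes was not tested.

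None of the 3 neuronal members passed the test between strains, beside 18.4% of all tested genes called in the averaged comparison. Ly6h, which limits the surface level of α7 nicotinic receptors, was listed at 318, 379 and 256 TPM in handled B6 mice, 443, 331 and 505 TPM in restrained B6 mice, 317, 279 and 298 TPM in handled BALB/c mice and 323, 383 and 426 TPM in restrained BALB/c mice. The strains overlapped in both treatments, and the averaged difference was -0.12 (95% interval -0.39 to 0.15, limma adjusted p = 0.5395). Lynx1, a brake on nicotinic signalling and on cortical plasticity, was listed at 76.2, 61.5 and 162 TPM in handled B6, 72.5, 55.4 and 96.7 TPM in restrained B6, 114, 103 and 94.7 TPM in handled BALB/c, and 79.1, 94.7 and 85.2 TPM in restrained BALB/c mice. The BALB/c values fell inside the B6 range, and the averaged difference was 0.21 (95% interval -0.24 to 0.66, limma adjusted p = 0.5275). Without B6 control animal 9 it was 0.41 and passed (limma adjusted p = 0.04247), in the fit that called 23.2% of tested genes.

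Lypd1 (Lynx2), a neuronal relative of Lynx1 linked to anxiety-like behaviour in mice, was listed at 113, 149 and 42.5 TPM in handled B6, 158, 143 and 136 TPM in restrained B6, 106, 96.1 and 112 TPM in handled BALB/c, and 93.0, 162 and 147 TPM in restrained BALB/c mice. The groups overlapped, and the averaged strain difference was 0.03 (95% interval -0.51 to 0.58, limma adjusted p = 0.9448). B6 control animal 9 thus held the highest value of all 12 libraries for Ly6e and Lynx1 and the lowest for Ly6h and Lypd1. The same library had the highest sum of neuron markers (7164 TPM). Among the handled B6 mice it had the lowest sums of striatal (232 TPM), myelin (2597 TPM), pericyte (104 TPM) and leukocyte markers (8.71 TPM). The part of these values in the results for the 4 genes was not tested.

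The receptors that these proteins bind showed no strain call among their tested genes. Of all tested genes, 4.73% were called in controls, 7.70% under CRS and 18.4% in the averaged comparison. With so few receptor genes tested, nothing is read from the absence of calls. Of 16 nicotinic acetylcholine receptor subunit genes, 4 were tested: Chrna4 and Chrnb2, which form the main high-affinity brain receptor, Chrna7, which forms the homomeric α7 receptor, and Chrna5, an accessory subunit. In the averaged strain comparison their differences were -0.09 for Chrna4, -0.06 for Chrnb2, 0.05 for Chrna7 and 0.08 for Chrna5 (limma adjusted p of 0.7813 or more). Their levels were 10.2 to 28.3 TPM for Chrna4, 10.7 to 17.6 TPM for Chrnb2, 5.47 to 10.3 TPM for Chrna7 and 1.54 to 6.12 TPM for Chrna5. The binding proteins were thus listed well above the subunits in TPM, with each library of Lynx1 at 55.4 TPM or more.

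Beyond the 7 genes, the wider Ly6 and uPAR family was listed as a further 36 genes, of which 6 were tested. Cd59a, which protects cells from complement, was the 1 of them called in each strain comparison, as higher in BALB/c. It stood at 4.45, 3.81 and 2.67 TPM in handled B6, 3.84, 4.17 and 4.48 TPM in restrained B6, 8.51, 7.33 and 8.89 TPM in handled BALB/c, and 7.29, 7.85 and 7.62 TPM in restrained BALB/c mice. The strains did not overlap, as was so for 8.95% of tested genes. The averaged difference was 0.87 (SE 0.109, limma adjusted p = 0.0002041), 2.03-fold in the means. That comparison called 18.4% of all tested genes, against 4.73% in controls and 7.70% under CRS. The other 5 family genes tested were not called: Lypd6 (0.11) and Lypd6b (0.23), which modulate nicotinic receptors, Cd59b (0.02), Ly6g6d (-0.81) and Ly6g6e (-0.38). Of the whole list of 43, 15 genes were listed at 0 in all libraries and 15 others above 0 but below the level for testing, at up to 1.75 TPM.

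**Figure D4:**
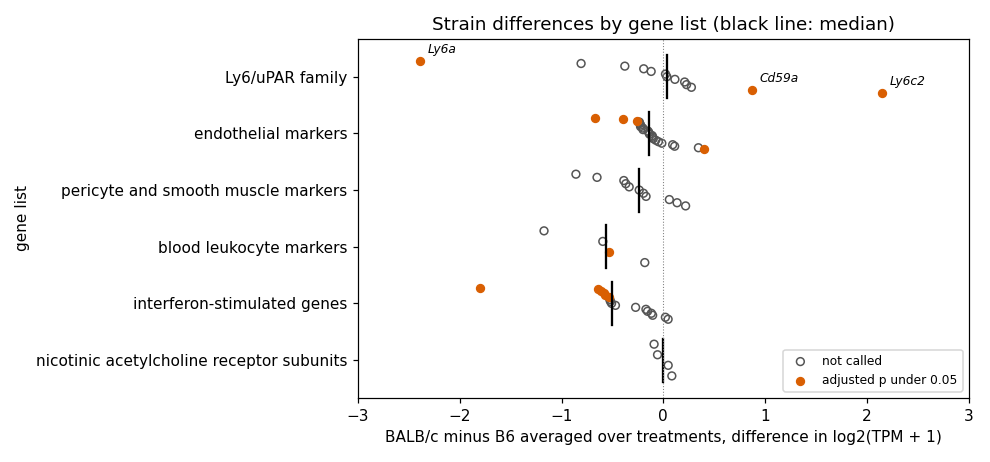
Averaged strain difference (BALB/c minus B6 in log2(TPM + 1), horizontal axis) of each tested gene in 6 gene lists (vertical axis); filled points were called at an adjusted p under 0.05 and black lines are list medians. Ly6a (-2.39), Cd59a (0.87) and Ly6c2 (2.15) are the called family genes; the endothelial median is -0.14 and the interferon-stimulated median -0.51.

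The second comparison asked how CRS changed these genes within each strain. None of the 7 genes was called in B6 or in BALB/c mice, or averaged over strains (limma adjusted p = 0.9458 or more). Over all genes, 0% were called in B6, 0.00609% in BALB/c and 0.00609% on average. At an unadjusted p under 0.05, 1 of the 7 genes passed in B6 (Ly6h; 4.82% of tested genes), 1 in BALB/c (Ly6a; 3.03%) and 1 on average (Ly6h; 5.17%). None of the 22 endothelial, 17 interferon-stimulated and 4 nicotinic genes tested was called in any of these comparisons.

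The Ly6h means were 318 ± 61.2 TPM in handled and 426 ± 88.2 TPM in restrained B6 mice, and 298 ± 19.1 and 377 ± 51.7 TPM in BALB/c mice (SD, n = 3 each). The difference averaged over strains was 0.38 (SE 0.122, 95% interval 0.11 to 0.64, unadjusted p = 0.009606, adjusted p = 0.9458, limma). The restrained and handled BALB/c mice did not overlap for Ly6h, as was so for 7.39% of tested genes, whereas the B6 groups overlapped. For Ly6a, CRS minus control was 0.36 in BALB/c (95% interval 0.02 to 0.71) and 0.12 in B6 (95% interval -0.22 to 0.46), with overlapping groups in both strains. Both differences are small beside its strain difference.

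Ly6c2 was lower in all restrained B6 mice than in all handled ones, as was so in that direction or the other for 8.33% of tested genes, but all 6 values lay under 1 TPM and the difference was -0.25 (95% interval -0.71 to 0.22). For Ly6c1 the differences were 0.04 in B6 (95% interval -0.20 to 0.29) and 0.01 in BALB/c (95% interval -0.24 to 0.26). Ly6e (-0.36 in B6, -0.0003 in BALB/c), Lynx1 (-0.32 and -0.27) and Lypd1 (0.69 and 0.32) had wider intervals, from -0.08 to 1.46 for Lypd1 in B6.

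The third comparison asked whether the CRS effect differed between strains. The interaction was not called for any of the 7 genes, nor for any tested gene (0%), and at an unadjusted p under 0.05 it passed for 0 of the 7 and for 2.70% of tested genes. Its values ran from -0.37 for Lypd1 (95% interval -1.47 to 0.72) to 0.36 for Ly6e (95% interval -0.38 to 1.10), with 0.25 for Ly6a (95% interval -0.24 to 0.73) and 0.31 for Ly6c2 (95% interval -0.35 to 0.97). The limma adjusted p was 0.9999 for each.

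The genes whose log2 profiles over the 12 libraries were most like those of Ly6a and Ly6c2 were found by the root mean square difference of profiles centred on their mean. For Ly6a these were Rpl3, a ribosomal protein gene (0.226), Zfp33b (0.246), Gm40518 (0.250), A730017L22Rik (0.253) and Gm34267 (0.255), beside a spread of Ly6a itself of 1.21. Rpl3 averaged 654 TPM in B6 and 118 TPM in BALB/c. For Ly6c2 they were Gm7658 (0.247), Bod1-ps (0.256), Gm35021 (0.281), Gm5823 (0.289) and Tdg-ps (0.289), beside a spread of 1.10. Gm7658 averaged 0.0846 TPM in B6 and 3.89 TPM in BALB/c. The likeness describes profiles that are mostly a step between the strains.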

How the data were processed

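RNA from 12 mice was sequenced as stranded mRNA libraries with paired 150 bp reads to about 6 Gb each, per the labels' protocols. The authors deposited a table of TPM values, read as TPM because each column sums to 1000000. It holds 147902 transcript entries under 55678 gene names. The submitters' processing notes name cutadapt 2.9, Salmon and the build GRCm38; the annotation release, the strand setting and the Salmon version are not given in the sources used here. TPM keeps no read depth, so none is given for any library and the error used is the spread over animals. Each column matched 1 sample title by strain and animal number, and no 2 columns were identical.

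TPM was summed per gene name, and the 16423 genes that reached 1 TPM in 3 or more of the libraries were fitted on log2(TPM + 1), which understates changes of low genes, with limma 3.58.1 (R 4.3.3; 4 group means, 8 residual degrees of freedom, intensity trend, two-sided, Benjamini-Hochberg over all tested genes, called under 0.05). The fit was tried on simulated data with independent noise for each gene. Those data held no shared shifts in tissue make-up, so no result here rests on that trial. Coordinates, coding sequences and shared words came from GENCODE M21; a sequence word was counted as specific when no other gene's transcripts held it. All 7 genes are named, with called genes of the lists and, for Ly6a and Ly6c2, the 5 genes of most similar profile. The genes and the lists were chosen with earlier results of these data known. Alternatives changed scaling, pseudocount, filter, variance model and libraries. The labels do not say whether libraries share a litter, cage or sequencing batch, so p-values measure the spread between these animals.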

Additional observations from a re-analysis of the deposited data

How the results depend on the processing

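Ly6a and Ly6c2 were called in all 3 strain comparisons under every alternative in which they were tested as single genes, with averaged differences of -2.62 to -2.31 for Ly6a and 2.01 to 3.52 for Ly6c2. Under the main filter Ly6c2 was admitted through BALB/c alone, so its calls there are no support for a strain difference. A filter on a mean of at least 5 TPM removed Ly6c2 and left 1 gene called in each strain comparison. Leaving out 1 library gave 2 to 4 called genes in the averaged strain comparison, 2 in controls, 2 under CRS, and 0 in each CRS and interaction comparison. No alternative gave a call for CRS or the interaction (smallest limma adjusted p = 0.2892, Ly6e for CRS in B6). With all libraries, the share of all genes called ranged from 2.17 to 7.42% in controls, 3.15 to 12.9% under CRS and 8.65 to 19.4% on average; leaving out 1 library, it ranged from 2.62 to 8.52%, 3.32 to 5.48% and 12.1 to 23.2%. Signs turned as follows. Replacing Ly6c2 by its sum with Ly6c1 gave -0.056 in controls, -0.078 under CRS and -0.067 averaged for strain, 0.039 for CRS in B6, 0.028 for CRS averaged and -0.023 for the interaction. The sum of Ly6a, Ly6c1 and Ly6c2 gave -0.48, -0.50 and -0.49 for strain, 0.066 for CRS in B6, 0.058 averaged and -0.017 for the interaction. Its 3 strain differences passed the test (limma adjusted p = 0.0288, 0.02071 and 0.001498). Median-of-ratios scaling gave 0.051 for Ly6h between strains in controls, -0.050 (BALB/c) and -0.0029 (averaged) for Ly6c1 under CRS, and -0.0080 for the Lynx1 interaction; rescaling without mitochondrial, Bc1 and ribosomal RNA gave 0.019 for that Ly6h difference and -0.018 for Ly6c1 under CRS in BALB/c. With the endothelial covariate, Lypd1 between strains averaged -0.013. Leaving out 1 library at a time gave strain differences in controls of -0.19 to 0.45 for Ly6e, -0.22 to 0.061 for Ly6h, -0.098 to 0.59 for Lynx1 and -0.31 to 0.59 for Lypd1. For Lypd1 it gave -0.31 to 0.089 between strains under CRS and -0.23 to 0.22 averaged. For CRS it gave -0.60 to 0.090 for Lynx1 in B6, -0.032 to 0.079 for Ly6c1 averaged, and in BALB/c -0.11 to 0.11 for Ly6c1, -0.21 to 0.23 for Ly6c2 and -0.039 to 0.046 for Ly6e. Interactions were -0.15 to 0.068 for Ly6c1, -0.26 to 0.055 for Ly6h, -0.36 to 0.33 for Lynx1 and -0.74 to 0.16 for Lypd1. The cause of these changes was not tested. In the main fit, none of these genes was called in those comparisons except Ly6c2 between strains.

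Animal numbers 9, 12 and 13 occur in both strains but are different mice, and same-numbered libraries did not deviate together (correlations of -0.24, -0.029 and -0.036 across genes). With the number as a replicate block, 2 genes remained called in each strain comparison, Ly6a (-2.39 averaged) and Ly6c2 (2.15), and 0 for CRS. Ly6c2 again entered through BALB/c alone. Between strains, that fit called 3.44% of all tested genes in controls, 4.57% under CRS and 14.9% averaged. For CRS it called 0.00609% in B6, 0% in BALB/c and 0.00609% averaged. Number 9 occurs only among handled mice and numbers 12 and 13 only among restrained mice, so the block is entangled with treatment. Its CRS differences rest largely on the remaining animals and cannot test the main CRS results. With the block, the sign of CRS differences turned for Ly6c1 (-0.034 in BALB/c, -0.016 averaged), Ly6c2 (-0.092 in BALB/c), Ly6e (0.24 in BALB/c, 0.065 averaged) and Lynx1 (0.076 in B6, 0.13 in BALB/c, 0.10 averaged).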
